A study of Mus musculus with 8 samples.

Results

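The comparison described here is a 1 h pulse of BMP4 against its own vehicle in cultured mouse muscle stem cells, measured by poly(A) RNA sequencing. It rests on 4 of the 8 libraries of the series: a vehicle library and a BMP4 library from isolation 48, and a vehicle library and a BMP4 library from isolation 54. The cells came from the muscle of female wild-type C57BL/6J mice 6 to 8 weeks old and were expanded for 2 days on Matrigel, a basement membrane extract. All groups, vehicle included, then spent 6 h in serum-free medium with 200 ng/ml of a soluble BMPR-IA/ALK3-Fc receptor fragment, which binds BMPs that the medium still holds. The pulse followed, with 100 ng/ml BMP4 or with the vehicle alone, which was 4 mM HCl with 0.1% BSA. The other 4 libraries hold a BMP6 pulse and a separate vehicle from isolations 75 and 77, and enter here mainly through the estimate of spread. Of 55223 loci in the joint table, 15212 were tested, those whose TPM averaged 1 or more across the libraries of isolations 48 and 54. TPM gives the transcripts of a gene as a share of each library, scaled by transcript length, so levels of different genes can be set side by side.

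Bone morphogenetic proteins are secreted ligands of the TGF-beta superfamily. They bring type I and type II receptor kinases together, and the type I receptor phosphorylates SMAD1, SMAD5 and SMAD9, which join SMAD4 and enter the nucleus to switch genes on or off. Among the best known immediate targets are the Id genes, whose products hold back myogenic factors such as MyoD, and the inhibitory SMADs, which turn the signal down again. In muscle stem cells, BMP signalling is known for keeping activated cells proliferating and delaying their differentiation, and Notch signalling for keeping them quiescent. The title of the series names Notch pathway genes as direct targets of the stimulation, so these are described beside the BMP targets.

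After 1 h of BMP4, 112 loci were higher than in vehicle (0.736% of those tested) and 20 were lower (0.131%), by limma with the isolation as a block and a Benjamini-Hochberg adjusted p under 0.05, two-sided. At an unadjusted p under 0.05 there were 3298 loci. The inhibitory SMAD gene Smad7, the TGF-beta inducible repressor Klf10, the homeobox gene Dlx2, the cytoskeletal early gene Arc and the Notch effector Hes1 led the rises. The myogenic factor gene Myf5 and the growth arrest gene Gas1 were among the falls. Of the 112 rises 11 had a log2 change above 2 and a further 37 lay between 1 and 2. Of the 20 falls 2 were larger than 2 on that scale and a further 4 lay between 1 and 2. At least 2-fold higher in both isolations were 56 loci (0.368% of those tested), and at least 2-fold lower in both were 10 (0.0657%), counted without a test on log2(TPM + 0.5). The isolation labels name separate preparations of cells, and the p-values rest on the spread over the 4 isolations of both experiments, with 2 residual degrees of freedom, moderated across loci. Fitted on the 4 libraries alone, with 1 residual degree of freedom, the test called 28 loci higher (0.184%) and 6 lower (0.0394%), of which 27 and 4 were also in the larger set. Smad7, Skil, Pmepa1, Junb, Hes1, Bhlhe40, Gadd45b, Hbegf, Spsb1, Cxcr4, Myf5 and Gas1 passed in both fits, and Id1, Smad6, Lfng, Dlx2, Klf10 and Arc did not pass in the smaller one. Of 58 tested named genes 29 lost their pass in the smaller fit. Sox9, Dusp5, Arid3a, Tgif1, Mafk, Csf1, Nfkbia, Ackr3, Pfkfb3, Ciart, Rcor2 and Prr12, described below, are also among these.

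Depth was even, at 55780383 to 58002740 estimated reads in the 4 libraries and 48012825 to 58002740 over the series. Library medians of log2(TPM + 0.5) lay between 3.68 and 3.73 in the 4 libraries. The label muscle stem cell was checked against 9 muscle stem cell and myoblast markers, all of which were tested, and their summed TPM was 2324 to 2755 per library. After 2 days of growth Myod1, the myogenic determination factor, stood at 543 to 839 TPM. The stem cell factor Pax7 stood lower, at 12.3 to 16.9 TPM. Muscle differentiation genes were also present, with a summed TPM of 7449 and 6790 in isolation 48 and 28705 and 28434 in isolation 54. The share of differentiating cells was not tested. Markers of other cells had lower summed TPM than the 9 muscle stem cell and myoblast markers, but some passed the filter. Those tested were 2 immune, 4 fibroblast, 5 pericyte, 4 Schwann cell and 1 erythroid marker, and no endothelial or adipocyte marker. Summed TPM was 0.785 to 1.87 for 8 endothelial markers with Tie1 and Emcn at 0, 0 to 0.512 for 5 adipocyte markers with Adipoq at 0, and 12.4 to 18 for 9 immune markers with Ptprc and Adgre1 at 0. It was 75.7 to 177 for 10 fibroblast markers, mostly collagens, with Pdgfra at 0.276 to 0.329 TPM, 56.9 to 104 for 7 pericyte markers, 7.00 to 12.4 for 6 Schwann cell markers and 0 to 3.77 for 5 erythroid markers, and no marker of these other cells passed the test. All 4 tested fibroblast markers were lower after BMP4 in both isolations, where 36.1% of all tested loci were, with a median log2 change of -0.19. The part of these other cells in the results was not tested, and in bulk libraries fewer cells of a type and less RNA per cell cannot be told apart.

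The isolations themselves differed before any pulse. All 29 tested muscle differentiation genes were higher in the vehicle of isolation 54 than in the vehicle of isolation 48. The summed TPM was 28705 against 7449. How many of all tested loci were higher in that vehicle was not counted. None of the 29 genes passed the test for BMP4, and the summed TPM after the pulse was 28434 and 6790. Each BMP4 library was therefore read against the vehicle of its own isolation.

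**Figure D1:**
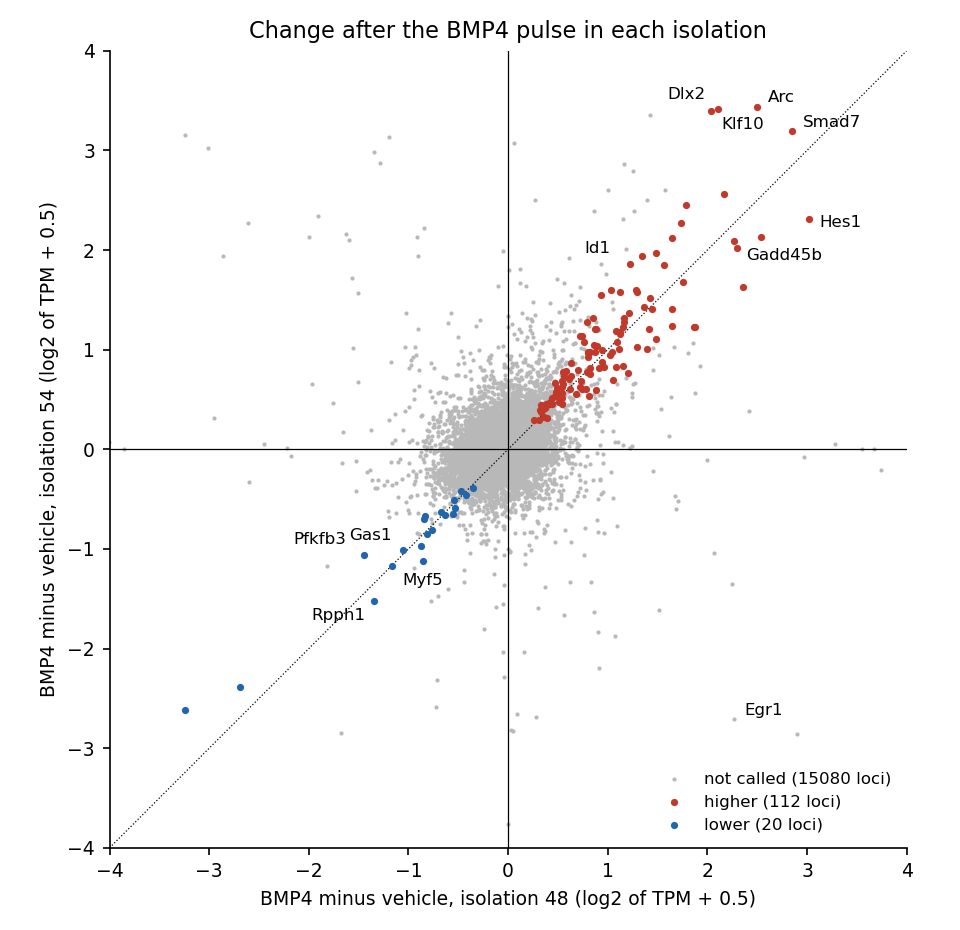
Log2 change after BMP4 in isolation 48 (horizontal) against isolation 54 (vertical) for each tested locus, on log2(TPM + 0.5), with the 112 loci that passed higher in red, the 20 that passed lower in blue and all others in grey. The dotted line marks equal change. The median gap between the isolations was 0.13 for the coloured loci and 0.124 for all tested loci. Some coloured loci lie off the line, such as Klf10 at 2.04 and 3.40. Egr1, which did not pass, lies far from it at 2.27 and -2.70. Outside the axes lie 25 loci, none of which passed.

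The plot of changes in the 2 isolations shows how the passing loci compare with the rest. Over all tested loci 4330 were higher in both isolations (28.5%) and 5486 lower in both (36.1%), and the changes of the 2 isolations correlated at r = 0.232 across loci, which are not independent replicates. None of the 132 passing loci moved in opposite directions, which the test itself favours. Both BMP4 libraries lay above both vehicle libraries in 97 of the 112 rises, where 9.93% of all tested loci did, and below them in 15 of the 20 falls, where 11.9% did; the test that chose these loci favours such a separation. In the other 20 passing loci the groups overlapped, as for Csf1, the macrophage growth factor, at 133 and 273 TPM in isolation 48 and 21.2 and 65.4 TPM in isolation 54. Of the 112 rises 69 were larger in isolation 54 and 43 in isolation 48.

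Inhibitory SMADs and other feedback genes of the pathway rose. Promoters are shown here for the members that had an entry in the RefSeq promoter table, out of those chosen to stand for an inhibitory SMAD, a Notch glycosyltransferase and an AP-1 factor; Id1, Skil and Hes1 were chosen as well. The sequences are the 250 bases before the annotated start in RefSeq on GRCm38.p6, an older build than the GRCm39 of the expression files, 5′ to 3′ on the strand of the gene, at chr9:64022060-64022309 (minus strand) for Smad6, chr5:140607091-140607340 (plus strand) for Lfng and chr8:84978749-84978998 (minus strand) for Junb. Matches to the searched motifs are in capitals.
Smad6: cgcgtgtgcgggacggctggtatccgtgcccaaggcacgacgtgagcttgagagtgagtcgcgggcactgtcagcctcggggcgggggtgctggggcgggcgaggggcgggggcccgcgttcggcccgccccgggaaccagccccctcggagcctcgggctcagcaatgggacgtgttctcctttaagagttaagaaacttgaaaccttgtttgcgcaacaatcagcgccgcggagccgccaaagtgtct
Lfng: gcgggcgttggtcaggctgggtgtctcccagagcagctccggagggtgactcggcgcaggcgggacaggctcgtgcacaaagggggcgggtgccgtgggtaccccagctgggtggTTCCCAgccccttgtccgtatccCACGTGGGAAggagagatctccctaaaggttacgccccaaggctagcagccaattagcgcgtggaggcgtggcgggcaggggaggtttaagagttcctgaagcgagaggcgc
Junb: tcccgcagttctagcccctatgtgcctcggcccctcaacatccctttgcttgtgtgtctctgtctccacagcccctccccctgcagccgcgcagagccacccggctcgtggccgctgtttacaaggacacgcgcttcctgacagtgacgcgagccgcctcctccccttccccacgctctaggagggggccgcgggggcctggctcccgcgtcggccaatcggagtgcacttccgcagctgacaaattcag
Motifs were searched on both strands: the GC-rich SMAD element GGCGCC, the SMAD box CAGAC, the RBPJ core TGGGAA, the E-box CACGTG and the cAMP response element TGACGTCA. Smad6 and Junb held no match in this window, and their GC content was 66.8% and 66.4%, against a median of 60% over the promoters of tested genes. Lfng held CACGTG, whose first base lies 112 bases before the start, and TGGGAA in 2 places, at 108 bases and, on the opposite strand, at 135 bases. The E-box and the nearer RBPJ core share bases. RefSeq entries matched 9044 of the tested genes, 74 of the genes that rose and 11 of those that fell. GGCGCC was found in 9.54% of all 27025 promoters, 17.6% of those of tested genes and 21.6% of those of genes that rose, and CAGAC in 42.1%, 40.4% and 35.1%. TGGGAA was found in 21.5%, 20% and 14.9%, CACGTG in 6.05%, 8.72% and 12.2%, and TGACGTCA in 1.62%, 2.85% and 2.7% of the same sets. These shares describe the letters of a 250-base window and say nothing of binding.

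Smad7, which blocks type I receptors and marks them for degradation, stood at 3.36 and 2.01 TPM in the vehicle libraries of isolations 48 and 54 and at 27.3 and 22.5 TPM after BMP4. Both BMP4 libraries were far above both vehicle libraries. It lies on chromosome 18 of GRCm39 at 75500600-75529006. The log2 change was 3.02 (SE 0.10, adjusted p = 0.00282), with 2.85 in isolation 48 and 3.19 in isolation 54. Smad6, which encodes another inhibitory SMAD, went from 4.68 to 12.6 TPM and from 3.97 to 16.6 TPM, again without overlap (change of 1.64 on the log2 scale, SE 0.17, adjusted p = 0.0375). Skil, the SnoN co-repressor that binds activated SMADs, rose from 14.4 to 49.3 TPM and from 12.3 to 61.1 TPM (change of 2.00 on the log2 scale, SE 0.13, adjusted p = 0.0141). Pmepa1, a membrane protein that sequesters receptor-activated SMADs, rose from 10.7 to 34.5 TPM and from 18.8 to 50.7 TPM. Nog encodes the secreted antagonist noggin, which binds BMPs outside the cell. It went from 2.60 to 9.22 TPM and from 5.54 to 13.8 TPM, a log2 change of 1.44 (SE 0.15, adjusted p = 0.0365). Fstl3, an inhibitor of activins and related ligands, rose by a log2 change of 0.89 (SE 0.09, adjusted p = 0.0324). Smad6, Nog and Fstl3 did not pass on the 4 libraries alone (adjusted p of 0.068, 0.0562 and 0.068). For Fstl3 the groups overlapped, since the vehicle of isolation 54 at 10.9 TPM was above the BMP4 library of isolation 48 at 9.05 TPM.

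Nog and Fstl3 were the 2 passing genes among 10 tested BMP ligands and antagonists, whose median log2 change was 0.16. Of 17 tested receptors, co-receptors and signal-transducing SMADs none passed, with a median of 0.12. Smad9, the receptor-activated SMAD that is itself a known target, was at 1.90 and 2.72 TPM in isolation 48 and at 0.886 and 1.66 TPM in isolation 54 (log2 change 0.53, adjusted p = 0.108), and passed with voom on estimated reads (adjusted p = 0.0315). The co-receptor genes Rgmb and Rgma had log2 changes of -0.54 and -0.46, with adjusted p of 0.0677 and 0.0725.

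Id genes, which encode helix-loop-helix proteins without a DNA-binding region, did not all pass. Id1 was the most abundant of the passing BMP-SMAD target genes after the pulse, with 149 and 349 TPM in isolation 48 and 100.0 and 365 TPM in isolation 54. Its groups did not overlap, and its log2 change was 1.54 (SE 0.15, adjusted p = 0.0324). Id3 was at 179 and 240.4 TPM in isolation 48 and at 96.2 and 233 TPM in isolation 54. The change of Id3 was therefore small in isolation 48 (log2 0.43) and large in isolation 54 (log2 1.27), and the gene did not pass (change of 0.85 on the log2 scale, SE 0.19, adjusted p = 0.12). Id2 gave the same picture, with changes of 0.27 and 1.07 (change of 0.67 on the log2 scale, SE 0.19, adjusted p = 0.158). In both Id2 and Id3 the BMP4 libraries of the 2 isolations lay close together, and the vehicle of isolation 48 stood higher than that of isolation 54. Id4 was below the filter, at 0.262 and 1.35 TPM and at 0.407 and 1.61 TPM. With voom on estimated reads Id2 (adjusted p = 0.0158) and Id3 (adjusted p = 0.0419) passed. Bambi, a decoy receptor gene, was below the filter as well, with 0.425 and 0.660 TPM in isolation 48 and 0.572 and 0.438 TPM in isolation 54. Atoh8, a helix-loop-helix factor known as a BMP target in other cells, moved in opposite directions (-0.17 and 0.43).

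In the list of 30 tested BMP-SMAD target genes 9 rose and none fell: Smad7, Dlx2, Skil, Smad6, Id1, Pmepa1, Nog, Foxc2 and Junb. Their list had a median log2 change of 0.48, beside -0.02 over all tested loci. In both isolations 22 of the 30 were higher, where 28.5% of all tested loci were. The share of all tested loci that passed as higher was 0.736%. Dlx2, a homeobox gene of craniofacial and limb development, went from 3.97 to 18.7 TPM and from 0.912 to 14.6 TPM (change of 2.76 on the log2 scale, SE 0.30, adjusted p = 0.042). Foxc2, a forkhead factor of mesenchyme and vessels, was low throughout, at 0.630 and 2.25 TPM and at 0.144 and 1.45 TPM, with 14.7 estimated reads in the lowest library (change of 1.44 on the log2 scale, SE 0.15, adjusted p = 0.037). With a pseudocount of 0.1 neither Dlx2 (adjusted p = 0.0557) nor Foxc2 (adjusted p = 0.0677) passed. Neither Dlx3 at a log2 change of 2.09 (adjusted p = 0.0504) nor Snai1, the transcriptional repressor of epithelial genes, at 1.95 (adjusted p = 0.0565) passed, though both had larger changes than several that did. In Snai1 the isolations differed by 1.40 against 2.51. These non-passing examples, Rgmb and Rgma were chosen after their values were seen.

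**Figure D2:**
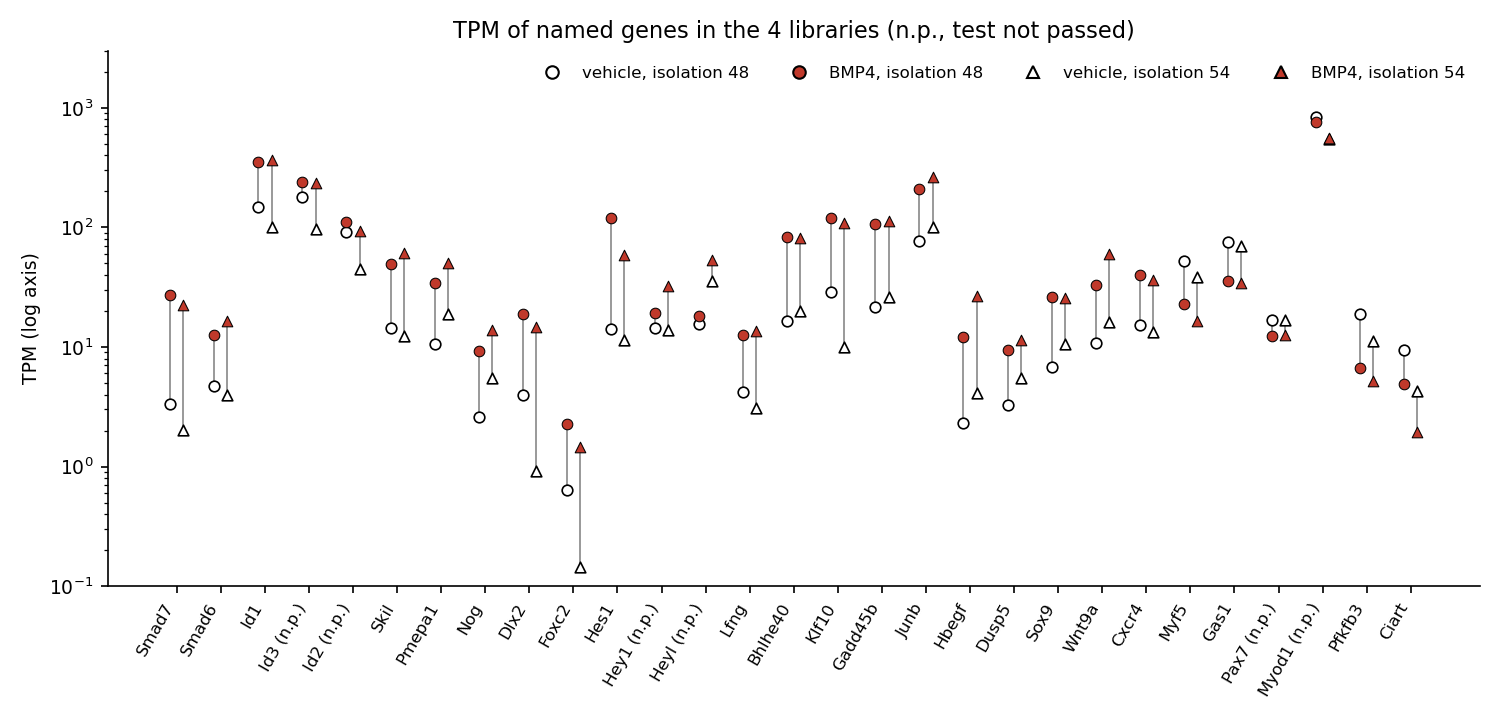
TPM (log axis) of 29 named genes in each of the 4 libraries, with open symbols for vehicle, filled symbols for BMP4, circles for isolation 48 and triangles for isolation 54; lines join the libraries of an isolation. For Smad7 the vehicle libraries sit at 3.36 and 2.01 and the BMP4 libraries at 27.3 and 22.5, while for Id3 the vehicle libraries differ more (179 and 96.2) than the BMP4 libraries (240.4 and 233).

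Notch genes are given by role. The effector list holds Notch targets such as Hes1 and Hey1, and also relatives such as Bhlhe40 that are not induced by Notch alone. Of this list 7 were tested, all were higher in both isolations, and 2 passed, with a list median of 0.52. Over all tested loci 28.5% were higher in both isolations and 0.736% passed as higher. Hes1, the repressor at the head of the Notch response, rose from 14.2 to 119 TPM in isolation 48 and from 11.4 to 58.7 TPM in isolation 54. The locus is at chr16:29884158-29886614. The BMP4 libraries differed from each other by more than the vehicles did but stayed above both vehicles (change of 2.67 on the log2 scale, SE 0.20, adjusted p = 0.0201). Bhlhe40, a basic helix-loop-helix repressor that responds to many signals, went from 16.5 to 83.3 TPM and from 19.9 to 82.2 TPM (change of 2.16 on the log2 scale, SE 0.08, adjusted p = 0.00282). Hey1 and Heyl, repressors induced by Notch in muscle stem cells, did not pass. Hey1 was at 14.3 and 19.3 TPM and at 13.8 and 32.4 TPM (log2 change 0.81, adjusted p = 0.127), and Heyl had a log2 change of 0.39 (adjusted p = 0.149). Nrarp, a feedback inhibitor of Notch, was at or below 2.42 TPM in all 4 libraries (log2 change 0.46, adjusted p = 0.25). Hey1 (adjusted p = 0.0361) and Heyl (adjusted p = 0.0296) passed with voom on estimated reads. Like Id2 and Id3, Hey1 changed less in isolation 48 (0.42) than in isolation 54 (1.20).

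Among 34 tested receptors, ligands and machinery genes of Notch signalling, 7 were higher and 17 lower in both isolations, with a median of -0.05. The shares over all tested loci were 28.5% and 36.1%. The list gave 1 passing gene. That gene was Lfng, a glycosyltransferase that modifies Notch receptors and shifts which ligands they answer, with 4.21 and 12.7 TPM in isolation 48 and 3.11 and 13.6 TPM in isolation 54. In the files it lies at chr5:140593075-140601300 on GRCm39. The groups did not overlap (change of 1.73 on the log2 scale, SE 0.13, adjusted p = 0.0204). Chosen after its values were seen, Jag1, a Notch ligand, was at 2.50 and 4.50 TPM and at 3.01 and 4.77 TPM, a change of 0.66 on the log2 scale that did not pass (adjusted p = 0.0536).

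Immediate early genes, which cells can switch on within minutes without new protein synthesis, are often the first to answer a ligand. Of 46 tested, 12 rose and none fell, where 0.736% and 0.131% of all tested loci did. The median log2 change was 0.40, with 0.78 in isolation 48 and 0.27 in isolation 54. In 40 of the 46 the vehicle of isolation 54 was above the vehicle of isolation 48, and the share over all tested loci was not counted. Egr1, a zinc finger factor induced by serum and growth factors, was at 3.89 and 20.6 TPM in isolation 48 but at 211 and 31.9 TPM in isolation 54. Fos, a subunit of AP-1, was at 3.85 and 7.70 TPM and at 74.1 and 15.7 TPM. Ier2 and Dusp1, a nuclear early gene and a MAP kinase phosphatase, showed the same order, with 48.2 and 44.4 TPM in the vehicle of isolation 54 against 11.4 and 13.0 TPM in that of isolation 48. For these genes the vehicle of isolation 54 was the highest of the 4 libraries, and each was higher after BMP4 in isolation 48 and lower in isolation 54. Of the 46 early genes 26 were higher in both isolations, where 28.5% of all tested loci were. A further 14 were higher in isolation 48 and lower in isolation 54, and 3 the other way. Opposite directions were thus seen in 17 of 46, near the share over all tested loci, 35.3%. The adjusted p of Egr1 was 0.93 and that of Fos 0.631. The part of that vehicle library in the results was not tested directly. Without isolation 54 the fit called 78 loci higher, of which 42 were among the 112; vehicle and BMP4 then had 1 library each, assumed to vary like the BMP6 isolations.

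**Figure D3:**
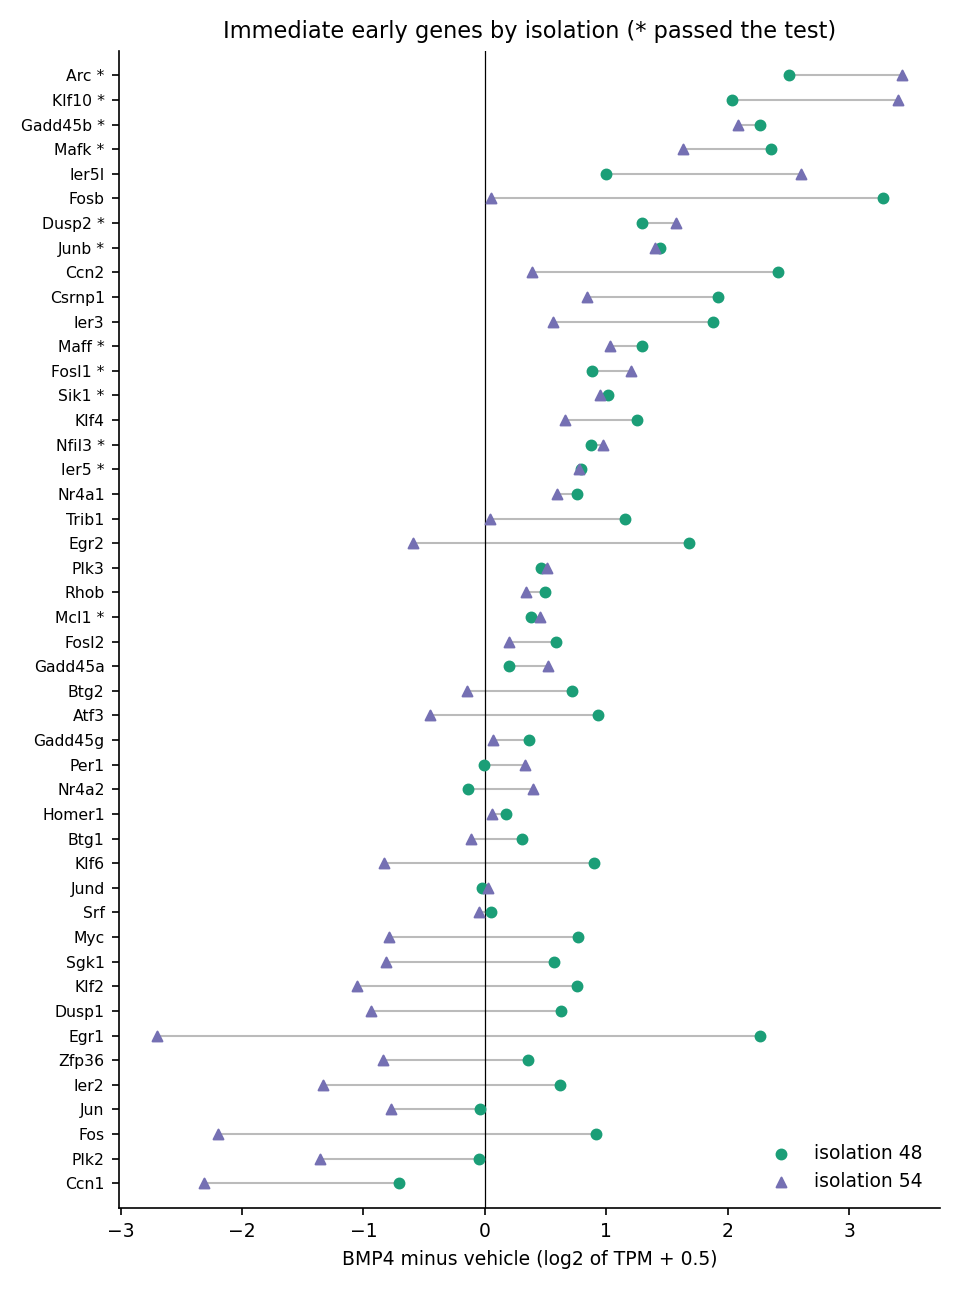
Log2 change after BMP4 (log2 of TPM + 0.5) of the 46 tested immediate early genes, with circles for isolation 48 and triangles for isolation 54 and an asterisk for the 12 that passed. Genes at the foot of the plot such as Fos (0.92 and -2.20) and Egr1 (2.27 and -2.70) moved apart in the isolations, whereas Junb (1.45 and 1.40) moved alike.

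The 12 early genes that rose did so in both isolations, and in 11 of them both BMP4 libraries lay above both vehicles, a count that the choice by the test favours. Arc, an activity-regulated gene of the cytoskeleton, went from 0.779 to 6.74 TPM and from 1.20 to 17.9 TPM (change of 2.97 on the log2 scale, SE 0.25, adjusted p = 0.0246). Klf10 rose from 28.6 to 119 TPM in isolation 48 and from 9.95 to 109.8 TPM in isolation 54 (change of 2.72 on the log2 scale, SE 0.31, adjusted p = 0.0464). Klf10 did not pass where loci averaging 0.5 TPM over 8 libraries were tested (adjusted p = 0.0518). Gadd45b, a stress and TGF-beta response gene that binds MAP kinase kinases, rose from 21.8 to 107 TPM and from 26.3 to 113 TPM (change of 2.18 on the log2 scale, SE 0.07, adjusted p = 0.00282). Junb, the AP-1 subunit that opposes c-Jun, had 76.4 and 209 TPM in isolation 48 and 99.8 and 265 TPM in isolation 54 (change of 1.42 on the log2 scale, SE 0.04, adjusted p = 0.00282). Mafk, Maff, Fosl1, Dusp2, Sik1, Nfil3, Ier5 and Mcl1 made up the rest, with log2 changes between 0.42 for the survival gene Mcl1 and 1.99 for the small Maf protein gene Mafk. Fosl1 was the gene whose groups overlapped, at 9.04 and 17.1 TPM in isolation 48 and 2.26 and 5.88 TPM in isolation 54.

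Genes that usually answer TGF-beta or activin, the other branch of the superfamily, formed a list of 26 tested loci. Of these 8 rose and 1 fell, where 0.736% and 0.131% of all tested loci did. The list had a median log2 change of 0.41. Smad7, Skil, Pmepa1, Klf10 and Bhlhe40 belong to it and have been described. Spsb1, an adaptor of an E3 ubiquitin ligase that targets TGF-beta receptors, rose from 3.05 to 20.1 TPM and from 6.65 to 30.9 TPM (change of 2.33 on the log2 scale, SE 0.12, adjusted p = 0.00848). Tgif1, a homeobox co-repressor of SMADs, rose by a log2 change of 1.24 (SE 0.14, adjusted p = 0.0476). The member that fell was Cdkn2b, which encodes the cell cycle inhibitor p15, at 20.1 and 14.9 TPM and at 15.1 and 10.9 TPM (change of -0.44 on the log2 scale, SE 0.05, adjusted p = 0.0476). With the filter at 0.5 TPM over 8 libraries, Tgif1 (adjusted p = 0.0524) and Cdkn2b (adjusted p = 0.0528) did not pass. Cdkn2b was also the sole passing gene among 31 tested cell cycle genes, whose median was -0.08.

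Growth factor feedback was represented by Hbegf and Dusp5, the 2 that passed among 20 tested ERK feedback and EGF-family genes (median 0.38). Hbegf, a membrane-bound EGF receptor ligand, rose from 2.31 to 12.1 TPM and from 4.09 to 26.6 TPM (change of 2.36 on the log2 scale, SE 0.11, adjusted p = 0.0065). Dusp5, a nuclear phosphatase of ERK, rose from 3.24 to 9.34 TPM and from 5.47 to 11.5 TPM (change of 1.20 on the log2 scale, SE 0.11, adjusted p = 0.0273). Of 19 NF-kB and cytokine genes Csf1, the NF-kB inhibitor gene Nfkbia and the CXCL12 scavenger Ackr3 rose, with a list median of -0.05. Wnt9a was the gene that passed among 19 Wnt pathway genes (median 0.01), from 10.9 to 33.2 TPM and from 16.3 to 60.2 TPM (change of 1.71 on the log2 scale, SE 0.09, adjusted p = 0.00877). Among 13 mRNA decay and transcription brake genes, the RNase gene Zc3h12a and the AU-rich element binding protein gene Zfp36l2 rose, by log2 changes of 1.24 and 1.06 (list median 0.10).

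Transcription factors of skeletal and limb tissue gave 3 passing genes of 17 tested (median 0.12): Dlx2, Foxc2 and Sox9. Sox9, the master factor of cartilage, rose from 6.76 to 26.2 TPM and from 10.6 to 25.5 TPM (change of 1.55 on the log2 scale, SE 0.16, adjusted p = 0.0365). The osteoblast factors Runx2 and Sp7 had log2 changes of 0.06 and 0.35 and did not pass. Cldn4, a tight junction protein, was the passing gene of 8 tested in the epithelial-mesenchymal list (median 0.08), with 5.12 and 17.1 TPM and 3.72 and 17.8 TPM. Arid3a, a DNA-binding factor first known from B cells, rose from 0.834 to 4.11 TPM and from 0.484 to 4.87 TPM (change of 2.12 on the log2 scale, SE 0.20, adjusted p = 0.0312). Trdj1, a short T cell receptor segment, also passed among the 20 largest, on 0.393 and 2.52 TPM and on 0 and 1.11 TPM. A locus this short and low rests on few reads, and it no longer passed with a pseudocount of 0.1 or of 2.

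Myogenic genes as a list did not move in a common direction. Of 27 tested myogenic regulators and stem cell markers 2 rose and 2 fell, with a median of -0.04. Myf5, the myogenic factor of committed progenitors, went from 52.3 to 23.0 TPM in isolation 48 and from 38.2 to 16.6 TPM in isolation 54. The locus is at chr10:107318769-107321995 on GRCm39. The fall was nearly equal in the isolations, at -1.17 and -1.18 (SE of the mean change 0.04, adjusted p = 0.00282). Gas1, a membrane protein that halts the cell cycle and binds Hedgehog, fell from 75.1 to 35.8 TPM and from 70.3 to 34.6 TPM (change of -1.03 on the log2 scale, SE 0.05, adjusted p = 0.00857). Cxcr4, the receptor for CXCL12, rose from 15.3 to 40.0 TPM and from 13.2 to 36.4 TPM (change of 1.39 on the log2 scale, SE 0.06, adjusted p = 0.00467), and Sdc4, a heparan sulfate proteoglycan used to mark satellite cells, rose from 8.65 to 25.1 TPM and from 4.69 to 10.7 TPM. Myod1 was at 839 and 763 TPM and at 543 and 562 TPM, a log2 change of -0.04 (SE 0.05, adjusted p = 0.656). Pax7 was at 16.9 and 12.3 TPM and at 16.7 and 12.6 TPM, with no overlap between the groups but an adjusted p of 0.081 (change of -0.41 on the log2 scale, SE 0.07) and of 0.016 with voom on estimated reads.

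Pfkfb3, which makes the main activator of glycolysis, fell from 18.9 to 6.61 TPM and from 11.3 to 5.17 TPM (change of -1.25 on the log2 scale, SE 0.11, adjusted p = 0.0261) and was the passing gene of 16 tested glycolysis and hypoxia loci (median -0.05). Ciart, a repressor of the circadian clock, fell from 9.46 to 4.92 TPM and from 4.30 to 1.95 TPM (change of -0.92 on the log2 scale, SE 0.07, adjusted p = 0.0196). With Bhlhe40 and Nfil3, which rose, it made 3 passing genes of 18 tested clock genes (median 0.12). Rcor2, a co-repressor partner of the demethylase LSD1, Prr12 and Ppargc1b, a co-activator of mitochondrial genes, had log2 changes of -0.75, -0.79 and -0.57, and Ppargc1b did not pass with the filter at 0.5 TPM over 8 libraries (adjusted p = 0.0509). Vgll2, a cofactor of TEAD factors in skeletal muscle, fell from 256 to 201 TPM and from 107 to 81.5 TPM. Rpph1, the RNA of ribonuclease P, fell from 21.2 to 8.03 TPM and from 12.2 to 3.91 TPM (change of -1.44 on the log2 scale, SE 0.08, adjusted p = 0.00877); it is not polyadenylated as a rule, and its level in a poly(A) library is of uncertain meaning. The predicted genes Gm12551 and Gm29233, at 4.22 and 2.56 TPM and at 2.73 and 2.11 TPM in the vehicles, are listed at 0 in both BMP4 libraries. Rpph1 is named by the rule for large falls, and Vgll2, Gm12551 and Gm29233 were chosen after their values were seen.

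Fech, which encodes the last enzyme of haem synthesis, is a fall in TPM that the reads did not share. Its TPM was 51.5 and 28.5 in isolation 48 and 93.6 and 57.6 in isolation 54 (change of -0.77 on the log2 scale, SE 0.07, adjusted p = 0.0325). The estimated reads over the whole locus were 6344 and 6243 in isolation 48 and 11009 and 10934 in isolation 54, and their depth-scaled log2 changes were 0.03 and 0.01. The other 131 of the 132 passing loci had the same sign in estimated reads as in TPM in both isolations. For the actin pseudogene Actb-ps1 the fall was smaller in reads, at -0.15 and -0.07 on the log2 scale against -0.48 and -0.42 in TPM, and with voom on estimated reads it did not pass (log2 change -0.12, adjusted p = 0.212).

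Passing genes outside the lists, chosen here after their values were seen, include many with smaller and even changes. Ddit4, an inhibitor of mTORC1 induced by stress, rose from 54.7 to 100.7 TPM and from 25.8 to 60.2 TPM (change of 1.04 on the log2 scale, SE 0.08, adjusted p = 0.0224). Tnfrsf12a, the receptor of the cytokine TWEAK in muscle, rose from 135 to 227 TPM and from 191 to 291 TPM (change of 0.68 on the log2 scale, SE 0.04, adjusted p = 0.0141). The BMP4 libraries of both genes lay above both vehicles. Map2k3, a kinase of the p38 pathway, rose from 60.1 to 84.0 TPM and from 55.0 to 82.1 TPM. Ets1, a transcription factor downstream of Ras signalling, rose by 0.92 on the log2 scale (adjusted p = 0.0324), from 10.3 to 17.8 TPM and from 7.25 to 15.9 TPM. Sertad1, a regulator of cyclin-dependent kinase 4, rose from 28.9 to 63.5 TPM and from 30.8 to 93.1 TPM. Mdm2, the ubiquitin ligase of p53, had one of the smaller rises, at 0.39 on the log2 scale (SE 0.04, adjusted p = 0.0377). Matrix genes that passed include Ccn4, a matricellular protein, from 30.9 to 58.3 TPM and from 32.5 to 57.7 TPM, and Timp3, an inhibitor of metalloproteinases, from 10.1 to 18.1 TPM and from 19.6 to 28.7 TPM. The groups of Timp3 overlapped, since the vehicle of isolation 54 was above the BMP4 library of isolation 48. The TEAD cofactor genes Vgll3 and Vgll4 rose by 0.62 and 0.57 on the log2 scale, whereas Vgll2 fell. Of the 132 passing loci 11 had a library under 1 TPM, 6 carried several gene names and 11 were predicted or unnamed models. Mir24-2 and Mir684-1 are loci with miRNA names, and their values in a poly(A) library are no measure of the mature miRNAs.

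**Figure D4:**
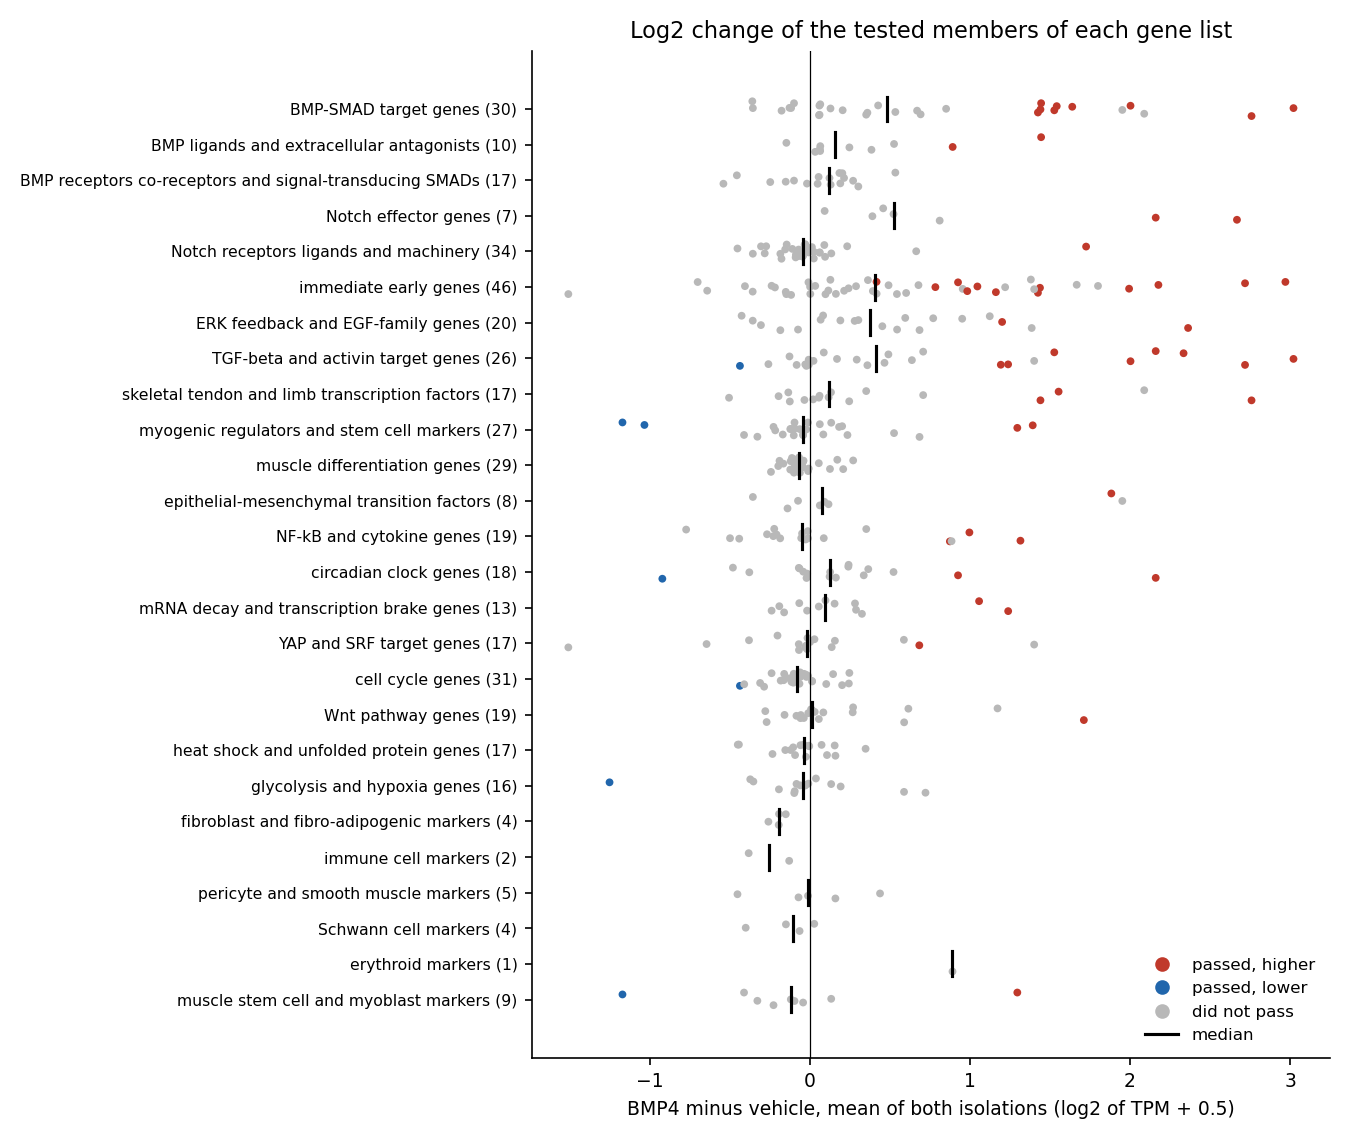
Log2 change after BMP4 (mean of both isolations) for the tested members of each gene list, in red where a member passed higher, in blue where it passed lower and in grey otherwise, with a black bar at the list median and the number of tested loci in brackets. Medians lie at 0.48 for BMP-SMAD targets and 0.52 for Notch effectors, and at -0.07 for muscle differentiation genes.

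Several lists held no passing gene or a single one. Muscle differentiation genes had 29 tested and none passing (median -0.07), and heat shock and unfolded protein genes 17 tested and none passing (median -0.04). Of 17 YAP and SRF targets the angiomotin gene Amotl2 rose, from 34.8 to 54.2 TPM and from 44.4 to 74.1 TPM, with a list median of -0.02.

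The BMP6 experiment used other isolations and its own vehicles, so the changes stand side by side without shared controls. Of the 112 loci that rose with BMP4, 92 (82.1%) were also higher with BMP6 in both of its isolations, where 27.1% of all tested loci were, and 12 were lower in both. Of the 20 that fell, 11 (55%) were lower in both BMP6 isolations, where again 27.1% of tested loci were, and 6 were higher in both. Their median log2 change was 0.93 with BMP4 and 0.26 with BMP6 for the rises, and -0.78 and -0.04 for the falls. The loci were chosen on the BMP4 change, which by itself makes that change the larger on average. The change of Hes1 was 2.67 with BMP4 and 3.10 with BMP6, that of Id1 1.54 and 1.83, and that of Dlx2 2.76 and 2.69. Lfng and Smad6 had larger values with BMP6, at 2.39 and 2.24 against 1.73 and 1.64. Hbegf had 2.36 with BMP4 and 0.60 with BMP6, Bhlhe40 2.16 and 0.68, Sox9 1.55 and 0.14, and Gas1 -1.03 and -0.13. The test of the difference between the 2 responses by limma called no locus (0% of those tested), with a smallest adjusted p of 0.118, while 2143 loci had an unadjusted p under 0.05 and voom on estimated reads called 44. By the limma test on TPM none of these genes is therefore shown to respond differently to the 2 ligands. Which loci made up the 44 is not given here.

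**Figure D5:**
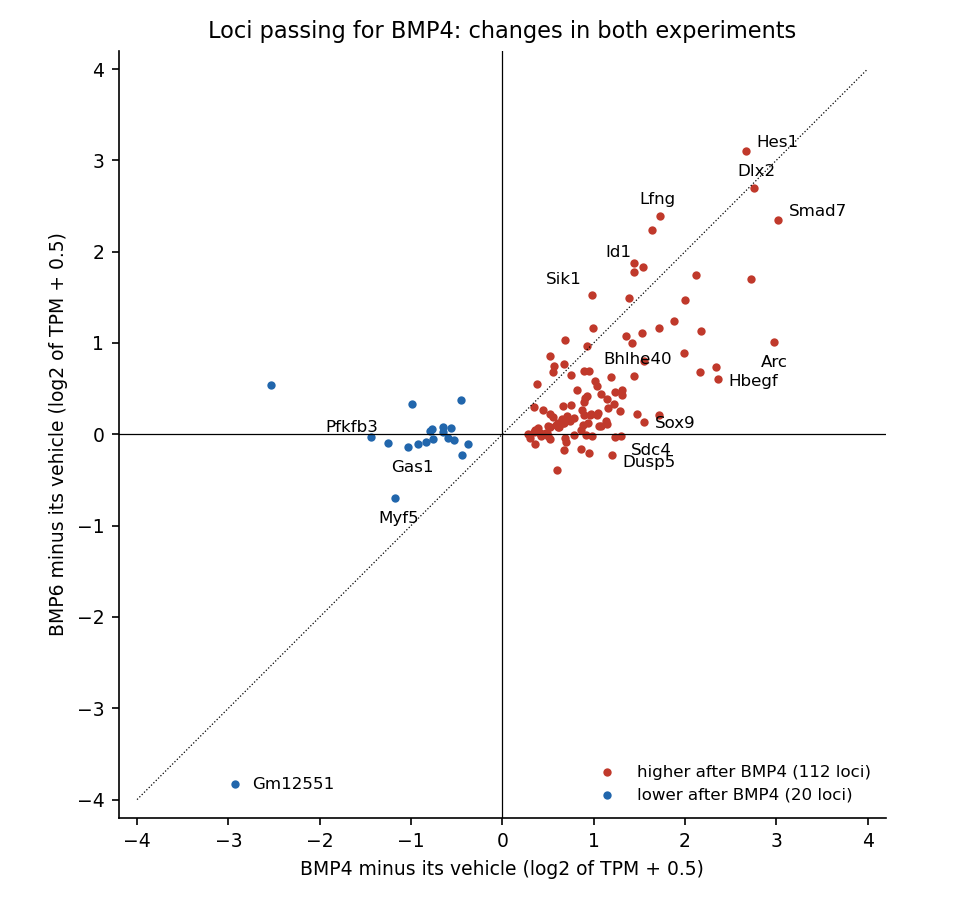
Log2 change with BMP4 (horizontal) and with BMP6 (vertical), each against its own vehicle, for the 112 loci that rose (red) and the 20 that fell (blue) with BMP4; the dotted line marks equal change. Hes1 (2.67 and 3.10) and Dlx2 (2.76 and 2.69) lie near the line and Hbegf (2.36 and 0.60) and Sox9 (1.55 and 0.14) below it, and no difference passed the test.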

How the data were processed

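From 500 ng RNA the authors made strand-specific poly(A) libraries and read 50 nt single ends, per the labels' protocols. The submitters' processing notes name STAR 2.7.11a, SAMtools 1.17, StringTie 2.2.1 and the build GRCm39. The TPM and FPKM values and the coverage signal per transcript were deposited by the authors as StringTie output, per the file headers, run on a merged annotation of their own with no strand option and with the correction for multi-mapped reads switched off, so overlapping genes, antisense genes and close paralogs are uncertain. The joint TPM table matched each library's own table in all 55223 loci within 1e-05. Of these, 1210 carry several gene names and 33 have damaged chromosome text.

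Reads were estimated as coverage times exon length over 50. The model (limma 3.58.1, R 4.3.3) took log2(TPM + 0.5) of 8 libraries with group and isolation terms and a variance trend, leaving 2 residual degrees of freedom, and was tested on simulated data. The labels give vehicle and stimulated libraries the same isolation number, which pairs them, and their deviations from the group means correlated at 0.736 (isolations 48 and 54) and 0.51 (75 and 77). Fold changes on this scale understate those of low genes. A fixed panel, the 20 largest passing rises and 12 largest passing falls with unambiguous names, up to 6 passing members of each of 28 lists and the 10 passing genes with the largest gap between isolations could be named. The comparison, genes and lists were chosen with earlier results of these data known. Alternatives were the block, the libraries in the fit, pseudocounts of 0.1 and 2, filters, FPKM, 2 rescalings, voom on estimated reads and each isolation left out. A passing gene of the TGF-beta and activin list is not reported here.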

Additional observations from a re-analysis of the deposited data

Results flagged for a closer look

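Over all tested loci 27.1% were lower in both BMP6 isolations and 27.1% were higher in both. Beside these shares, for 18 of the 132 loci that passed for BMP4, both BMP4 isolations moved one way and both BMP6 isolations the other. Of these, 12 rose with BMP4, and their BMP4 response minus the BMP6 response on the log2 scale was 1.43 for Dusp5, 1.31 for Sdc4, 1.27 for Tgif1, 1.16 for Mir684-1, 1.03 for Ccn4 and 0.99 for Mex3b. It was 0.85 for Timp3, 0.78 for Zfp367, 0.73 for Irf2bpl, 0.58 for 1810013L24Rik, 0.46 for Gm14008 and 0.35 for Gm15470. For the 6 that fell with BMP4 it was -1.33 for Gm49326, -0.82 for Prr12 and for Actb-ps1, -0.74 for Nckap5l, -0.67 for Bicra and -0.63 for Ppargc1b. The BMP6 changes themselves lay between -0.39 for Mex3b, an RNA-binding protein gene, and 0.37 for the actin pseudogene Actb-ps1, whose BMP4 fall was also smaller in estimated reads than in TPM. Some BMP6 changes were close to none, as for Sdc4 (-0.01 and -0.02 in isolations 75 and 77) and Bicra (0.03 and 0.02). None of the 18 differences passed the limma test of the difference, with adjusted p from 0.118 for Mex3b to 0.23 for Tgif1 and Bicra.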

How the results depend on the processing

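With no replicate block for the isolations 3 loci were higher and 0 lower, against 112 and 20. With the replicate block on only the 4 libraries of isolations 48 and 54 the counts were 28 and 6, and without block on those libraries 0 and 0. Leaving out 1 isolation at a time gave 24 to 124 loci higher, 6 to 40 lower and 0 to 20 for the difference between the BMP4 and BMP6 responses. The extremes came without isolation 48 (124 and 40, of which 56 and 6 were shared with the main result) and without either BMP6 isolation (24 and 6). A mean of at least 5 TPM gave 50 lower, no filter on 29457 loci gave 10 higher and 1 lower, and voom on estimated reads with the replicate block gave 605 higher, 496 lower and 44 for the difference; with fewer or more loci tested the adjustment itself changes, and for voom the cause was not tested. Pseudocounts of 0.1 and 2, FPKM, rescaling to the same median, quantile normalization and the 0.5 TPM filter left both counts within 1.5 times. No passing locus was called in the opposite direction under any of these settings. With voom 6 named genes that had not passed (Id2, Id3, Smad9, Hey1, Heyl and Pax7) did. Of 58 tested named genes, Fech alone changed sign, to 0.019 with voom (adjusted p = 0.776). At these depths a gene under about 1 TPM, such as Foxc2, rests on few reads.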

Other observations

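Of 19 tested mitochondrial tRNA loci 15 were lower after BMP4 in isolation 48 and higher in isolation 54, and none the other way. Opposite directions of either kind were seen in 35.3% of all tested loci. Of the 15, 6 differed at least 2-fold in both isolations. Some rest on few reads, with 1.08 estimated reads for mt-Tv in its lowest library. As for Rpph1, the levels of such RNAs in a poly(A) library are of uncertain meaning. The merged locus of the leucine and serine tRNA genes mt-Tl2 and mt-Ts2 was at 38.7 TPM in vehicle and 14.9 TPM after BMP4 in isolation 48, and at 11.4 and 94.0 TPM in isolation 54. The histidine tRNA locus mt-Th was at 47.6 and 20.4 TPM and at 8.30 and 76.8 TPM. In all, 22 tested loci were at least 2-fold apart in opposite directions, Egr1 among them. None of them passed the test, an outcome that their choice by opposite changes sets in advance. These loci were chosen after their values were seen.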
